A study of Mus musculus with 5 samples.

Results

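The 40 genes described here encode the IKK kinases, the subunits and inhibitors of NF-kB, and the receptors, adaptors and enzymes that lead to them. They were taken by gene symbol, and all 40 were found among the 31053 genes of the matrices. Ventral skin, taken at postnatal day 28 from mice on the C57BL/6J background, was profiled by single-cell RNA sequencing with 10x 3' v2 chemistry. The 3 Ikkb_cKO libraries came from Prx1Cre+Ikkbf/f animals, in which both alleles of Ikkb (Ikbkb in the files) are floxed and Cre is driven by an enhancer of Prx1 (Prrx1), active in mesenchyme of the limb and trunk. The 2 WT libraries came from wild-type mice. No floxed animals without Cre were among the samples, so the Cre transgene and the floxed alleles go together with the deletion. Dead cells, debris and aggregates had been sorted out before loading. Each library pooled the cells of 2 mice, so a library is a pool and not an animal. Nothing in the labels says that the pools were processed on separate days, and the p-values measure the spread between these libraries.

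NF-kB transcription factors are dimers of the proteins encoded by Rela, Rel, Relb, Nfkb1 and Nfkb2. In resting cells the inhibitors encoded by Nfkbia, Nfkbib and Nfkbie keep them out of the nucleus. Signals from Toll-like, interleukin-1 and TNF receptors pass through adaptors and TRAF ubiquitin ligases to the TAK1 complex, which activates IKK. IKK consists of the kinases encoded by Ikbkb and Chuk with the scaffold encoded by Ikbkg, and it marks the inhibitors for destruction. A separate branch runs from the kinase encoded by Map3k14 to Chuk and the processing of the Nfkb2 product, and TRAF and cIAP proteins hold it down. Nfkbia and Tnfaip3 are themselves induced by NF-kB and end its activity. In skin the pathway controls inflammation in keratinocytes, fibroblasts and immune cells, and loss of IKK activity in keratinocytes is known to cause inflammatory skin disease in mice.

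Of 11084 cell barcodes, 10390 passed the filters. A cell had a median of 1607, 1869 and 2805 UMIs in the Ikkb_cKO libraries and 3576 and 4023 in the WT libraries. Pairs of libraries shared 0 to 17 barcodes. The cells formed 23 clusters, of which 21 with 10151 cells took a class name from marker genes, written fibroblast-like, myeloid-like and so forth because they rest on markers. Fibroblast-like cells numbered 531, 497 and 878 in Ikkb_cKO and 1811 and 1931 in WT, myeloid-like cells 137, 159 and 550 in Ikkb_cKO and 814 and 859 in WT, and lymphocyte-like cells 187, 134 and 471 in Ikkb_cKO and 100 and 96 in WT. Genotypes were tested in these 3 classes, since each library held at least 20 cells of each. The fibroblast marker list was detected in full in fibroblast-like cells, with a summed level of 49570, 49810 and 73360 CPM in Ikkb_cKO and 55900 and 55360 CPM in WT, and in myeloid-like cells it came to 135 to 211 CPM in Ikkb_cKO and 460 to 479 CPM in WT.

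The classes were not made of the same clusters in the genotypes. Cluster 9, led by Fn1, Ptx3 and Tnfaip6, held 399, 366 and 328 of the fibroblast-like cells of the Ikkb_cKO libraries and 24 and 21 of those of WT. Cluster 19 held 3, 6 and 372 fibroblast-like cells of the Ikkb_cKO libraries and 48 and 53 of WT, so library 3 stood apart from the other Ikkb_cKO libraries. Cluster 8 held 2, 1 and 1 cells of Ikkb_cKO and 266 and 319 of WT, and cluster 15 held 4, 2 and 3 cells of Ikkb_cKO and 210 and 256 of WT. Among myeloid-like cells, the cluster led by Retnla, Pf4 and C1qb (cluster 7) held 6, 21 and 117 cells in Ikkb_cKO and 403 and 404 in WT. Among lymphocyte-like cells, the cluster led by Areg, Il13 and Il5 (cluster 12) held 140, 102 and 193 cells in Ikkb_cKO and 25 and 26 in WT. Depth moved with genotype too, since the median fibroblast-like cell had 1556, 1779 and 2450.0 UMIs in Ikkb_cKO and 4777 and 5234 in WT. The mitochondrial share of their UMIs was 3.23 to 3.49% in Ikkb_cKO and 2.10 to 2.14% in WT. The neutrophil list in myeloid-like cells summed to 2692, 5286 and 1243 CPM in Ikkb_cKO and 549.0 and 197 CPM in WT. In fibroblast-like cells all 20 myeloid markers had a UMI, with sums of 51.1 to 72.5 CPM in Ikkb_cKO and 64.3 to 129 CPM in WT, and in lymphocyte-like cells 18 of the 20 had one, with sums of 648 to 1504 CPM in Ikkb_cKO and 1288 to 2197 CPM in WT and Adgre1 and Cd209a at 0. The part of these differences in the results below was not tested beyond the fits within clusters, without the neutrophil-rich cluster and at equal depth.

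Which skin cells used which members was read first from WT, as CPM, the UMIs of a gene relative to all UMIs of the class in a library. These levels are a description, since the clusters were made from the same genes. Of the 40 members, 18 had their highest WT mean in myeloid-like, 16 in lymphocyte-like and 6 in fibroblast-like cells. With cells thinned to 1000 UMIs, which left out the shallower cells and kept 9191 of 10390, 32 had the same highest class. The 6 of fibroblast-like cells were Rela, Bcl3, Tab3, Traf5, Myd88 and Irak1. Rela encodes the main activating subunit, and it was at 86.0 CPM in fibroblast-like, 68.0 in myeloid-like and 60.6 in lymphocyte-like cells of WT. For several of the 40 the classes lay close: Nfkbia had 1797 and 1757 CPM in the fibroblast-like cells of the WT libraries and 1805 and 1783 in the lymphocyte-like cells, so those classes did not differ beyond their spread.

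Other members split the skin sharply. Nfkbid, which encodes a nuclear IkB protein of lymphocytes and myeloid cells, had 0.99, 0 and 1.14 CPM in Ikkb_cKO, against 0.29 and 0.92 in WT in fibroblast-like cells. In myeloid-like cells it had 219, 252 and 101 CPM in Ikkb_cKO, against 290.3 and 297 in WT, and in lymphocyte-like cells 412, 384 and 249 CPM in Ikkb_cKO, against 353 and 233 in WT. A UMI of Nfkbid was found in 0.188, 0 and 0.342% of cells in Ikkb_cKO and 0.166 and 0.57% in WT among fibroblast-like cells, but in 36.5, 35.8 and 23.6% of cells in Ikkb_cKO and 48.5 and 50.9% in WT among myeloid-like cells, despite the higher depth of WT fibroblast-like cells. The small shares in fibroblast-like cells are an upper limit on what free RNA in the droplets contributed of this gene there. Traf1, a TNF receptor adaptor, was at 1.83 CPM in fibroblast-like, 70.9 in myeloid-like and 234 in lymphocyte-like cells of WT. Rel, the lymphoid and myeloid subunit c-Rel, was at 27.5, 249.6 and 95.6 CPM in the same order of classes. The Toll-like receptor gene Tlr2 had 23.8 CPM in fibroblast-like and 125 in myeloid-like cells of WT, and no UMI in the lymphocyte-like cells of any library. Tlr4, the receptor for bacterial lipopolysaccharide, likewise had no UMI in lymphocyte-like cells of WT, where 3 UMIs would have stood at 12.3 and 10.9 CPM.

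**Figure D1:**
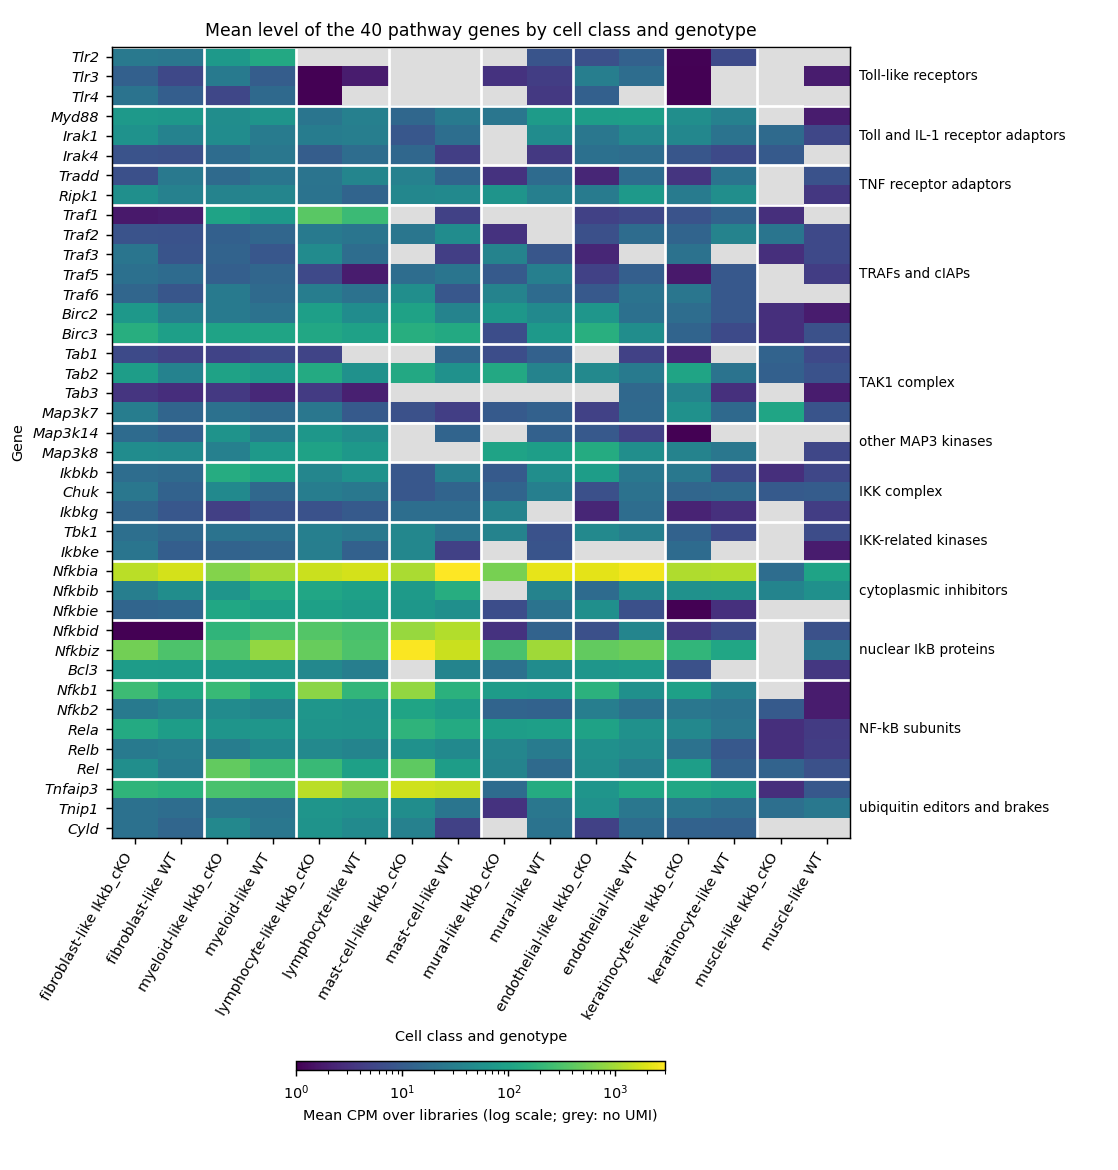
Mean CPM of each of the 40 genes (rows, grouped by role) over the libraries of a genotype (3 Ikkb_cKO, 2 WT) in each named cell class (columns, Ikkb_cKO left of WT), on a log colour scale on which values under 1 CPM share the darkest colour and grey means no UMI. Nfkbid and Traf1 are near 0 in fibroblast-like cells and bright in myeloid-like and lymphocyte-like cells, while Nfkbia is bright in all classes but the muscle-like one.

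Genotypes were compared in each class with edgeR's quasi-likelihood test on UMIs summed per library, with Benjamini-Hochberg adjustment over all genes of the class and a threshold of 0.05. Values are CPM normalised by TMM, in the order of the libraries, and log2 fold changes are Ikkb_cKO over WT. In fibroblast-like cells 37 of the 40 members could be tested and 15 passed, 12 higher and 3 lower in Ikkb_cKO. That is 40.5% of the members tested, where 35.3% of all 10605 genes tested passed, so the share was near the background. Among all genes 17.5% passed as higher and 17.8% as lower. The members' median log2 fold change was 0.35 and that of all genes 0.04. Ikkb_cKO and WT libraries did not overlap for 22 of the 37, against 61.0% of all genes. Nfkbid, Tab3 and Traf1 had too few UMIs. With cells thinned to 1000 UMIs, 7 members passed, of 33 tested, where 2113 of 7377 genes passed. Thinning also left out the cells with fewer UMIs, which were 147, 111 and 132 of the fibroblast-like cells in Ikkb_cKO and 95 and 88 in WT. The fit at equal depth therefore differs in its cells as well as its depth. With all cells at full depth, 9 of the 15 still passed without Ikkb_cKO library 1. None of the 15 passed when WT library 1 or WT library 2 was left out, and the lone WT library was then assumed to vary like the others.

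In myeloid-like cells 39 members were tested, all but Tab3, and 9 passed, 5 higher and 4 lower in Ikkb_cKO. These were 23.1% of the members tested, against 18.4% of all 8954 genes, of which 9.04% were higher and 9.37% lower. The median log2 fold change was 0.22 for members and -0.001 for all genes. The libraries of the genotypes did not overlap for 19 members, against 45.1% of all genes. In lymphocyte-like cells 28 members had enough UMIs and 6 passed, all higher, or 21.4% against 12.5% of all 4290 genes. There 7.53% of all genes were higher and 4.99% lower, with a median of 0.49 for members and 0.02 for all genes. There was no overlap for 15 members, against 50.3% of all genes. In lymphocyte-like cells 3 of the 6 passed without Ikkb_cKO library 1. At equal depth 2 of 16 members passed there, where 203 of 1777 genes did. Without WT library 1 or 2 most of the myeloid-like and lymphocyte-like calls were lost, and the calls over all genes fell as well. The lone WT library was again assumed to vary like the others. Over the classes, 22 members passed in at least 1 class, and Rel passed in all 3. The classes of a library come from the same mice, so calls in several classes are not independent.

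**Figure D2:**
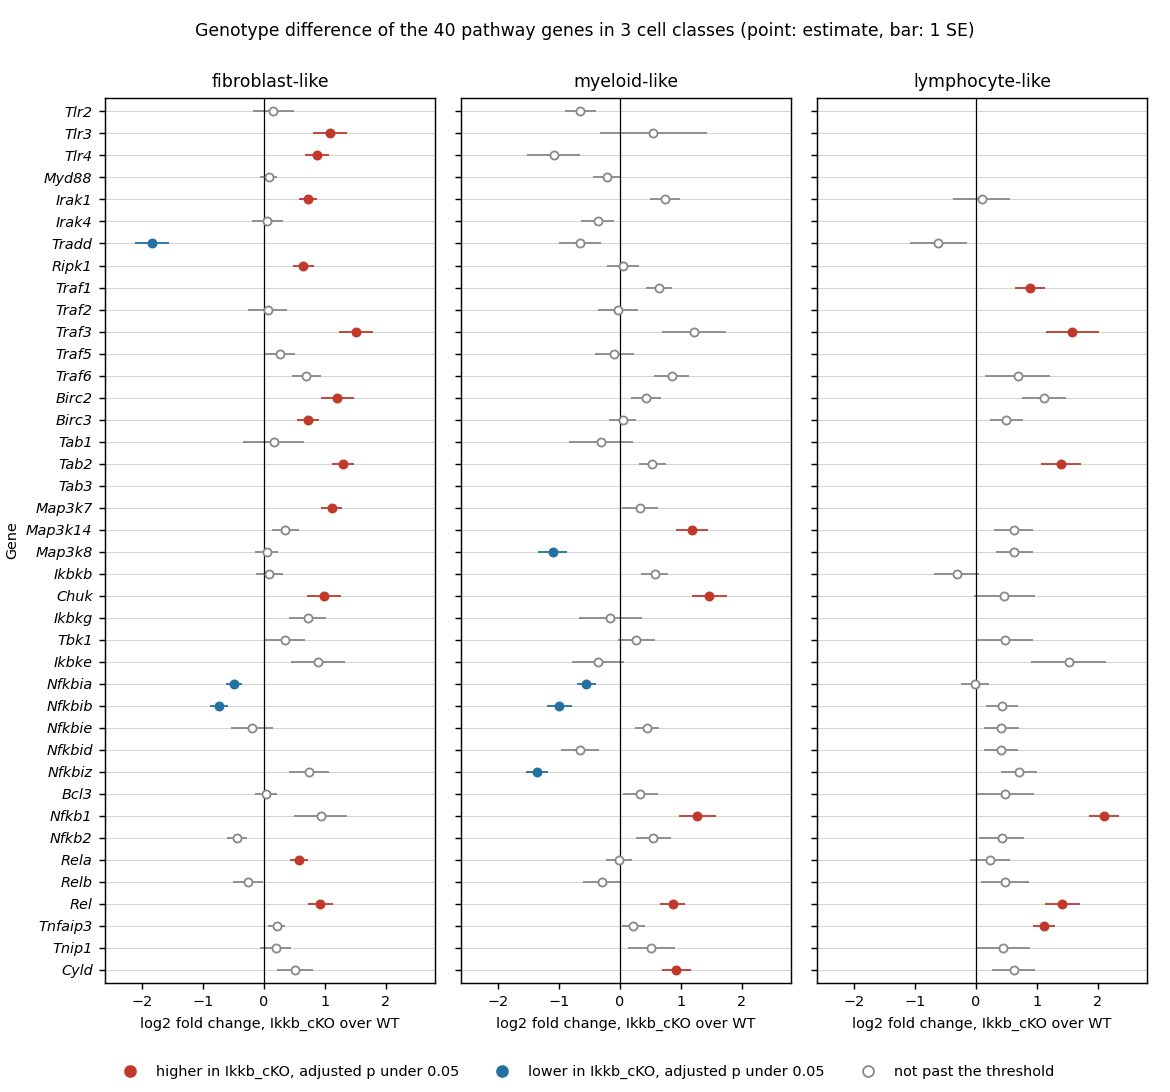
The log2 fold change (x axis, Ikkb_cKO over WT) of the 40 genes (y axis, grouped by role) in fibroblast-like, myeloid-like and lymphocyte-like cells, with bars of 1 SE from edgeR over 3 Ikkb_cKO and 2 WT libraries and no point where a gene had too few UMIs to be tested. Filled points passed an adjusted p of 0.05. Tradd lies farthest to the left in fibroblast-like cells at -1.83, and Nfkb1 farthest to the right in lymphocyte-like cells at 2.10.

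Of the IKK complex, the transcript of the targeted gene passed in none of the 3 classes, and that of its partner kinase was higher in Ikkb_cKO in fibroblast-like and myeloid-like cells. Ikbkb lies on chromosome 8 at 22659212 to 22706589 on the minus strand of GRCm38 and encodes the kinase IKKβ. In fibroblast-like cells, the class in which the Prx1 enhancer is known to act, it had 15.7, 19.8 and 16.3 normalised CPM in Ikkb_cKO, against 14.3 and 18.0 in WT. The genotypes overlapped (log2 0.09, SE 0.22, adjusted p = 0.781, edgeR). The assay reads transcript 3' ends. Which exons were floxed is not stated in the sources used here, so UMIs from transcripts that lack them may still be counted, and the level does not check the deletion. A UMI of Ikbkb was found in 2.82, 4.43 and 4.67% of cells in Ikkb_cKO and 7.68 and 10.51% in WT, and after thinning to 1000 UMIs in 1.56, 2.59 and 2.01% of cells in Ikkb_cKO and 1.57 and 1.74% in WT.

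Ikbkb was far more abundant in the immune classes. Myeloid-like cells had 155, 109.7 and 175 normalised CPM in Ikkb_cKO, against 102 and 100.3 in WT. All 3 Ikkb_cKO values lay above both WT values, but the difference did not pass (log2 0.57, SE 0.22, adjusted p = 0.102, edgeR). Without Ikkb_cKO library 2 it passed, with an adjusted p of 0.0419. Lymphocyte-like cells had 39.9, 34.4 and 57.2 normalised CPM in Ikkb_cKO, against 69.4 and 47.4 in WT, with overlap (log2 -0.32, SE 0.37, adjusted p = 0.596, edgeR).

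Chuk encodes IKKα, the kinase that Ikbkb shares the complex with and the one the alternative branch uses. In fibroblast-like cells it had 17.7, 20.7 and 32.7 normalised CPM in Ikkb_cKO, against 11.8 and 13.2 in WT. Every Ikkb_cKO library was above both WT libraries, and library 3 was the highest (log2 0.98, SE 0.28, adjusted p = 0.0339, edgeR). At equal depth the log2 fold change was 0.97 and the adjusted p 0.0655. Myeloid-like cells had 46.3, 56.2 and 33.3 normalised CPM in Ikkb_cKO, against 16.7 and 13.1 in WT, again without overlap (log2 1.47, SE 0.29, adjusted p = 0.00556, edgeR). It passed there without WT library 1 but not without WT library 2, with an adjusted p of 0.116, nor at equal depth, with log2 1.11 and an adjusted p of 0.197. Lymphocyte-like cells had 42.8, 20.6 and 37.3 normalised CPM in Ikkb_cKO, against 20.4 and 29.2 in WT, and the groups overlapped. Ikbkg, the scaffold NEMO, had 9.83, 12.1 and 19.8 normalised CPM in Ikkb_cKO, against 8.53 and 9.51 in WT in fibroblast-like cells, with no overlap, and did not pass (log2 0.72, SE 0.31, adjusted p = 0.111, edgeR). Its myeloid-like levels were 0, 5.35 and 8.595 normalised CPM in Ikkb_cKO, against 7.58 and 7.26 in WT, and it had too few UMIs in lymphocyte-like cells, with 2.85, 13.8 and 8.73 normalised CPM in Ikkb_cKO, against 8.16 and 10.9 in WT.

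Among the subunit genes, Rel was higher in Ikkb_cKO in all 3 classes, Nfkb1 in both immune classes and Rela in fibroblast-like cells, while Nfkb2 and Relb passed in none. Rel had 55.1, 41.4 and 61.5 normalised CPM in Ikkb_cKO, against 30.7 and 25.4 in WT in fibroblast-like cells. The lowest Ikkb_cKO library still lay above the higher WT library (log2 0.92, SE 0.21, adjusted p = 0.0163, edgeR). Without Ikkb_cKO library 1 its adjusted p was 0.0506. In myeloid-like cells, where Rel was most abundant, the levels were 378, 401 and 562 normalised CPM in Ikkb_cKO, against 257 and 239 in WT. The groups stood apart, with library 3 the highest (log2 0.87, SE 0.20, adjusted p = 0.0135, edgeR). Lymphocyte-like cells had 208, 234 and 318 normalised CPM in Ikkb_cKO, against 81.6 and 109 in WT, and the lowest Ikkb_cKO library was well above the higher WT library (log2 1.42, SE 0.28, adjusted p = 0.00861, edgeR). Without WT library 1 or 2 the adjusted p was 0.143 and 0.199 in myeloid-like cells and 0.134 and 0.0829 in lymphocyte-like cells.

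Nfkb1 encodes the precursor that is cut to a subunit without an activating domain. Its largest difference was in lymphocyte-like cells, with 915, 874 and 704 normalised CPM in Ikkb_cKO, against 147 and 237 in WT. Every Ikkb_cKO library stood well above both WT libraries (log2 2.10, SE 0.25, adjusted p = 0.000379, edgeR), and the call held without either WT library. The share of lymphocyte-like cells with a UMI of Nfkb1 was 63.6, 67.9 and 68.4% of cells in Ikkb_cKO and 21.0 and 39.58% in WT. Myeloid-like cells had 223, 131 and 322 normalised CPM in Ikkb_cKO, against 104 and 89.3 in WT. The groups did not overlap, though Ikkb_cKO library 2 came close to WT (log2 1.27, SE 0.31, adjusted p = 0.0152, edgeR), and without WT library 1 or 2 the adjusted p was 0.101 and 0.172. In fibroblast-like cells the levels were 164, 162 and 399 normalised CPM in Ikkb_cKO, against 127 and 129 in WT. Library 3 was far above the other 2 Ikkb_cKO libraries, and the difference did not pass (log2 0.93, SE 0.43, adjusted p = 0.149, edgeR). Without library 3 the difference was smaller, log2 0.34, and passed, with an adjusted p of 0.0051.

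Rela had 139.6, 139 and 116 normalised CPM in Ikkb_cKO, against 89.5 and 85.8 in WT in fibroblast-like cells. All Ikkb_cKO values exceeded both WT values (log2 0.58, SE 0.15, adjusted p = 0.0236, edgeR), but the adjusted p was 0.0643 without Ikkb_cKO library 1 and 0.0598 without library 2. In the immune classes the genotypes overlapped for Rela, with 62.6, 61.5 and 72.0 normalised CPM in Ikkb_cKO, against 72.0 and 63.0 in WT in myeloid-like cells and 71.3, 65.3 and 73.0 normalised CPM in Ikkb_cKO, against 73.5 and 47.4 in WT in lymphocyte-like cells. Nfkb2, the precursor of the alternative branch, had 28.5, 28.5 and 24.1 normalised CPM in Ikkb_cKO, against 35.4 and 36.9 in WT in fibroblast-like cells, which did not pass (log2 -0.44, SE 0.17, adjusted p = 0.0806, edgeR). It had 51.7, 26.7 and 66.6 normalised CPM in Ikkb_cKO, against 37.5 and 35.6 in WT in myeloid-like and 62.7, 55.0 and 109 normalised CPM in Ikkb_cKO, against 61.2 and 58.3 in WT in lymphocyte-like cells, with overlap in both. Relb, the partner of the Nfkb2 product, had 18.7, 34.5 and 25.3 normalised CPM in Ikkb_cKO, against 33.0 and 29.8 in WT in fibroblast-like cells. Its myeloid-like levels were 19.0, 24.1 and 47.3 normalised CPM in Ikkb_cKO, against 47.0 and 41.5 in WT, and Ikkb_cKO libraries 1 and 2 lay below WT while library 3 did not. Without library 3 it passed as lower there, with an adjusted p of 0.03. Lymphocyte-like cells had 51.3, 34.4 and 60.3 normalised CPM in Ikkb_cKO, against 40.8 and 32.8 in WT.

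**Figure D3:**
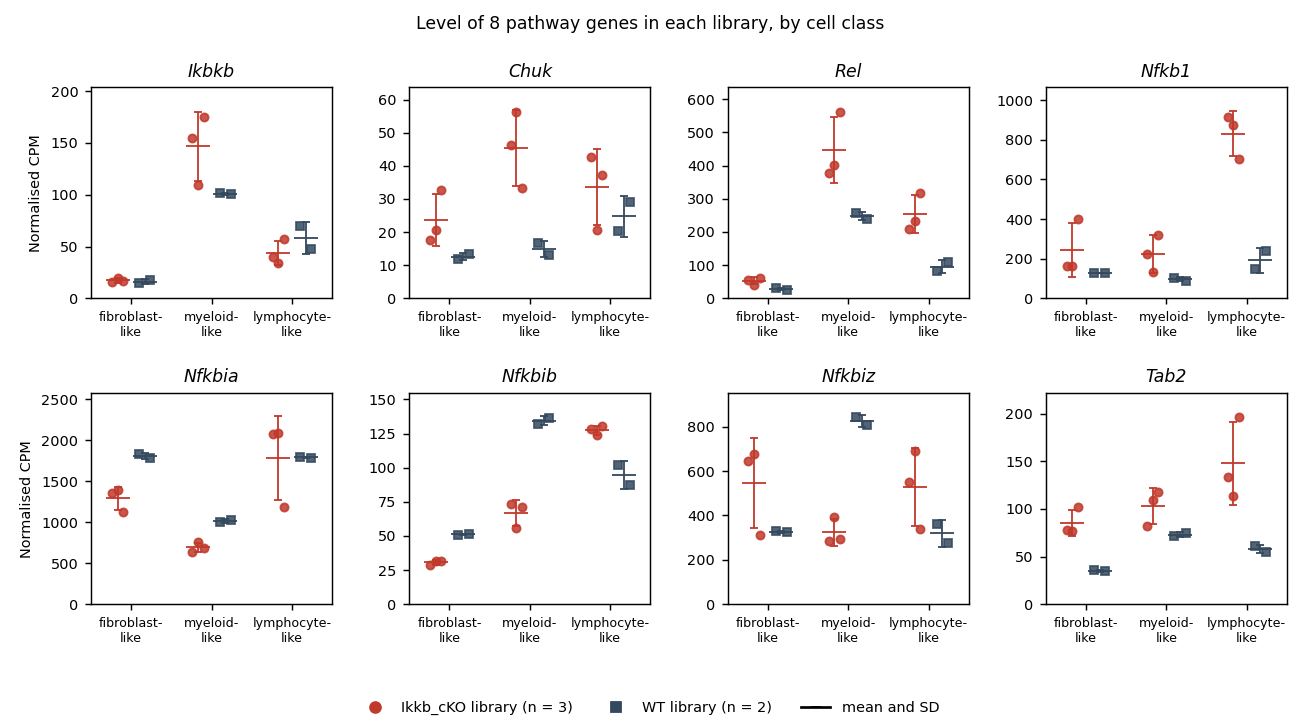
Normalised CPM (y axis, from 0) of 8 of the 40 genes in each library, by cell class (x axis), with Ikkb_cKO libraries (circles, n = 3) left of WT libraries (squares, n = 2) and the mean and SD as a line and bar. Ikbkb overlaps between genotypes in fibroblast-like cells, and Nfkbib is lower in Ikkb_cKO in fibroblast-like and myeloid-like cells, at 30.6 and 66.8 against 51.2 and 134 in WT.

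Of the cytoplasmic inhibitors, Nfkbia and Nfkbib were lower in Ikkb_cKO in fibroblast-like and in myeloid-like cells, and Nfkbie passed in no class. Nfkbia encodes IkBα, the main inhibitor and a target of NF-kB. In fibroblast-like cells it had 1353, 1392 and 1130.2 normalised CPM in Ikkb_cKO, against 1838 and 1783 in WT. The groups did not overlap (log2 -0.49, SE 0.13, adjusted p = 0.0264, edgeR). Its adjusted p was 0.0633 without Ikkb_cKO library 1 and 0.0545 without library 2, and 0.0788 at equal depth, where the log2 fold change was -0.40. Myeloid-like cells had 637, 754 and 688 normalised CPM in Ikkb_cKO, against 1002 and 1029 in WT, with no overlap (log2 -0.55, SE 0.16, adjusted p = 0.0307, edgeR). Here too the call was lost without Ikkb_cKO library 1 or 2, with adjusted p of 0.0563 and 0.0546, at equal depth, with 0.262 and log2 -0.34, and in DESeq2's Wald test, with 0.0622. Lymphocyte-like cells had 2075, 2088 and 1189 normalised CPM in Ikkb_cKO, against 1796 and 1786 in WT. There libraries 1 and 2 were above WT and library 3 below it (log2 -0.01, SE 0.23, adjusted p = 0.983, edgeR).

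Nfkbib encodes IkBβ, a slower inhibitor. In fibroblast-like cells it had 28.5, 31.9 and 31.5 normalised CPM in Ikkb_cKO, against 51.0 and 51.4 in WT. The 5 libraries fell into groups by genotype with little spread inside each (log2 -0.73, SE 0.15, adjusted p = 0.0112, edgeR), and at equal depth the log2 fold change was -0.64 and the adjusted p 0.0887. Myeloid-like cells had 73.5, 56.2 and 70.9 normalised CPM in Ikkb_cKO, against 132 and 137 in WT, and every Ikkb_cKO library was below both WT libraries (log2 -0.99, SE 0.21, adjusted p = 0.00763, edgeR). In lymphocyte-like cells the order was the other way, with 128, 124 and 130.2 normalised CPM in Ikkb_cKO, against 102 and 87.5 in WT, but the difference did not pass (log2 0.43, SE 0.26, adjusted p = 0.292, edgeR). Nfkbie had 119.7, 115 and 128 normalised CPM in Ikkb_cKO, against 91.3 and 88.2 in WT in myeloid-like cells, without overlap, and an adjusted p of 0.144 in edgeR.

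The nuclear IkB proteins bind NF-kB dimers on DNA and change which genes they drive. Nfkbiz, which encodes IkBζ, was lower in Ikkb_cKO in myeloid-like cells, with 283, 393 and 295 normalised CPM in Ikkb_cKO, against 843 and 807 in WT. The highest Ikkb_cKO library was below the lower WT library by more than the spread in either genotype (log2 -1.36, SE 0.18, adjusted p = 0.000664, edgeR). This call was kept under all 18 alternatives fitted to the class, leaving out each library included. In fibroblast-like cells the levels were 645, 679 and 313 normalised CPM in Ikkb_cKO, against 329 and 324 in WT. Libraries 1 and 2 of Ikkb_cKO were higher than WT and library 3 was not, and the difference did not pass (log2 0.74, SE 0.33, adjusted p = 0.134, edgeR). Without library 3 it passed as higher, with an adjusted p of 9.87e-10. Lymphocyte-like cells had 553, 691 and 341 normalised CPM in Ikkb_cKO, against 363 and 277 in WT, where libraries 1 and 2 were above both WT libraries and library 3 between them, and passed as higher without library 3, at an adjusted p of 1.29e-05. Bcl3 and Nfkbid passed in no class.

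Upstream of IKK, 2 of the 4 genes of the TAK1 complex, Tab2 and Map3k7, were higher in Ikkb_cKO fibroblast-like cells, while Tab1 did not pass and Tab3 could not be tested. Among all genes of this class 17.5% passed as higher, and the complex as a set was not tested. Map3k7 encodes TAK1 itself and had 29.5, 29.3 and 31.5 normalised CPM in Ikkb_cKO, against 13.7 and 14.3 in WT. The groups were well apart (log2 1.11, SE 0.17, adjusted p = 0.0051, edgeR), and at equal depth the log2 fold change was 0.96 and the adjusted p 0.0593. Tab2 encodes the partner that binds ubiquitin chains and had 77.7, 76.7 and 102 normalised CPM in Ikkb_cKO, against 35.5 and 34.5 in WT. Its Ikkb_cKO libraries were all above both WT libraries (log2 1.297, SE 0.18, adjusted p = 0.00363, edgeR). Of the members in this class Tab2 had the lowest adjusted p, and it also passed with cells thinned to equal depth. In lymphocyte-like cells Tab2 had 134, 113 and 197 normalised CPM in Ikkb_cKO, against 61.2 and 54.7 in WT, higher in Ikkb_cKO (log2 1.40, SE 0.33, adjusted p = 0.0199, edgeR), but not without Ikkb_cKO library 1 (adjusted p = 0.0641 in edgeR). Myeloid-like cells had 81.6, 109.7 and 118 normalised CPM in Ikkb_cKO, against 71.2 and 74.7 in WT, without overlap and without passing (log2 0.53, SE 0.22, adjusted p = 0.12, edgeR), and without Ikkb_cKO library 1 the adjusted p was 0.0422.

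The other MAP3 kinases differed between genotypes in myeloid-like cells. Map3k14 encodes NIK, the kinase of the alternative branch, and had 65.3, 40.1 and 77.9 normalised CPM in Ikkb_cKO, against 26.9 and 30.4 in WT. Every Ikkb_cKO library was higher (log2 1.18, SE 0.27, adjusted p = 0.0108, edgeR). Inside the clusters where it could be tested it did not pass, with log2 0.33 (adjusted p = 0.617, edgeR) in cluster 13 and 0.70 (adjusted p = 0.232, edgeR) in cluster 6. Map3k8 encodes a kinase that links Toll-like receptors to the ERK pathway and had 35.4, 24.1 and 39.8 normalised CPM in Ikkb_cKO, against 79.9 and 70.9 in WT, lower in every Ikkb_cKO library (log2 -1.10, SE 0.24, adjusted p = 0.00931, edgeR). Without WT library 1 or 2 the adjusted p was 0.211 and 0.13 for Map3k14 and 0.148 and 0.0762 for Map3k8. In fibroblast-like cells Map3k14 had 18.7, 16.4 and 13.2 normalised CPM in Ikkb_cKO, against 12.7 and 11.8 in WT, which did not overlap and did not pass, and Map3k8 overlapped.

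TRAF proteins and the cIAP ubiquitin ligases carry signals from TNF family receptors and restrain NIK. Of the 7 genes, 6 were tested in fibroblast-like cells and 3 were higher in Ikkb_cKO, where 17.5% of all genes were. These genes were not tested as a set. Traf3 had 19.7, 18.1 and 29.97 normalised CPM in Ikkb_cKO, against 7.35 and 9.08 in WT. All Ikkb_cKO libraries exceeded WT, and library 3 was the highest (log2 1.51, SE 0.28, adjusted p = 0.00835, edgeR). Birc2, which encodes cIAP1, had 83.6, 82.8 and 46.3 normalised CPM in Ikkb_cKO, against 30.2 and 30.1 in WT. Libraries 1 and 2 were well above library 3, which was itself above WT (log2 1.20, SE 0.27, adjusted p = 0.0162, edgeR), and without library 1 or 2 the adjusted p was 0.0547 and 0.0528. Birc3, the neighbouring gene for cIAP2, had 146, 128 and 181 normalised CPM in Ikkb_cKO, against 96.9 and 89.3 in WT. It stood apart from WT in each library (log2 0.71, SE 0.18, adjusted p = 0.0226, edgeR), but not past the threshold without Ikkb_cKO library 1, with an adjusted p of 0.059. In lymphocyte-like cells Traf3 had 45.6, 65.3 and 49.2 normalised CPM in Ikkb_cKO, against 16.3 and 18.2 in WT and Traf1 had 439, 516 and 361 normalised CPM in Ikkb_cKO, against 188 and 281 in WT. Both were higher in every Ikkb_cKO library (log2 1.58, SE 0.44, adjusted p = 0.0369 for Traf3 and log2 0.89, SE 0.25, adjusted p = 0.037 for Traf1, edgeR). Traf3 rested on 9 UMIs in WT, and its adjusted p was 0.0696 without Ikkb_cKO library 1 and 0.169 in DESeq2's Wald test. For Traf1 these were 0.105 and 0.0769. None of the 7 passed in myeloid-like cells, where the adjusted p in edgeR ran from 0.061 for Traf6 to 0.985 for Traf2.

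The adaptors of the TNF receptor went opposite ways in fibroblast-like cells. Tradd, which couples the receptor to TRAF2 and RIPK1, had 3.93, 9.48 and 7.78 normalised CPM in Ikkb_cKO, against 25.7 and 26.4 in WT. All 3 Ikkb_cKO libraries were far below both WT libraries, the largest fall among the members in this class (log2 -1.83, SE 0.28, adjusted p = 0.00471, edgeR). Ripk1, the kinase that is ubiquitinated at the receptor, had 56.0, 45.7 and 60.3 normalised CPM in Ikkb_cKO, against 35.6 and 33.9 in WT, higher in each Ikkb_cKO library (log2 0.65, SE 0.17, adjusted p = 0.0265, edgeR). Without Ikkb_cKO library 1 the adjusted p of Ripk1 was 0.0654, and at equal depth it was 0.199 with log2 0.44. Neither gene passed in myeloid-like cells, and Tradd had 28.5, 17.2 and 27.0 normalised CPM in Ikkb_cKO, against 36.7 and 40.1 in WT in lymphocyte-like cells without passing.

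Receptors and adaptors of the Toll-like and interleukin-1 route were also higher in Ikkb_cKO fibroblast-like cells for 3 of 6 genes. Over all genes of the class 17.5% passed as higher, and the route as a set was not tested. Irak1, the kinase recruited by MYD88, had 61.0, 56.9 and 57.6 normalised CPM in Ikkb_cKO, against 35.6 and 35.3 in WT. Each genotype was tight and the groups did not overlap (log2 0.72, SE 0.14, adjusted p = 0.0103, edgeR). Tlr4 had 23.6, 19.8 and 19.1 normalised CPM in Ikkb_cKO, against 11.4 and 11.1 in WT, higher in all Ikkb_cKO libraries (log2 0.87, SE 0.20, adjusted p = 0.0169, edgeR). Tlr3, the receptor for double-stranded RNA, had 8.85, 12.9 and 13.6 normalised CPM in Ikkb_cKO, against 4.90 and 6.54 in WT, from 59 UMIs in Ikkb_cKO and 127 in WT (log2 1.081, SE 0.28, adjusted p = 0.0265, edgeR). Without Ikkb_cKO library 2 the adjusted p of Tlr3 was 0.0637. Tlr2 had 20.6, 16.4 and 39.3 normalised CPM in Ikkb_cKO, against 23.9 and 24.6 in WT, with overlap, and Myd88 and Irak4 did not pass. In myeloid-like cells Tlr4 had 0, 8.03 and 8.595 normalised CPM in Ikkb_cKO, against 15.5 and 14.9 in WT and Tlr2 had 54.4, 66.9 and 101 normalised CPM in Ikkb_cKO, against 117 and 131 in WT, both lower in each Ikkb_cKO library and neither past the threshold (log2 -1.09, SE 0.44, adjusted p = 0.109 and log2 -0.65, SE 0.25, adjusted p = 0.0966, edgeR). Without Ikkb_cKO library 3 Tlr2 passed as lower, with an adjusted p of 0.00123.

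Of the 3 genes that end the signal, Tnfaip3 was higher in Ikkb_cKO in lymphocyte-like cells and Cyld in myeloid-like cells. Tnfaip3, the ubiquitin-editing enzyme that switches off TNF and Toll-like signals, had 1648, 1506 and 1277 normalised CPM in Ikkb_cKO, against 706 and 653 in WT in lymphocyte-like cells. Its Ikkb_cKO libraries were all far above WT (log2 1.12, SE 0.18, adjusted p = 0.00221, edgeR), and without WT library 1 or 2 the adjusted p was 0.0627 and 0.0941. In fibroblast-like cells it had 179.9, 178 and 213 normalised CPM in Ikkb_cKO, against 159 and 172 in WT, which did not overlap and did not pass (log2 0.21, SE 0.14, adjusted p = 0.289, edgeR). Cyld, the deubiquitinase that opposes TRAF signals, had 43.5, 34.8 and 49.96 normalised CPM in Ikkb_cKO, against 23.9 and 23.5 in WT in myeloid-like cells and was higher in Ikkb_cKO (log2 0.92, SE 0.24, adjusted p = 0.0201, edgeR). It was lost without Ikkb_cKO library 3, with an adjusted p of 0.0939, and in DESeq2's Wald test, with 0.14. Tnip1, a partner of the Tnfaip3 product, and the IKK-related kinases Tbk1 and Ikbke passed in no class. Ikbke had 27.5, 29.3 and 9.73 normalised CPM in Ikkb_cKO, against 11.4 and 10.9 in WT in fibroblast-like cells, where libraries 1 and 2 were above WT and library 3 was not.

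Of the 40 members, 18 passed in no class: Ikbkb, Ikbkg, Nfkb2, Relb, Nfkbie, Nfkbid, Bcl3, Tnip1, Tab1, Tab3, Traf2, Traf5, Traf6, Myd88, Irak4, Tlr2, Tbk1 and Ikbke. In fibroblast-like cells the log2 fold changes of those tested ran from -0.44 for Nfkb2 to 0.88 for Ikbke. Tab1 and Tab3 were the scarcest besides Nfkbid and Traf1, with 25 and 20 UMIs in Ikkb_cKO fibroblast-like cells and 107 and 65 in WT. A miss at this depth does not show that the genotypes were alike.

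Whether a genotype difference was itself different between classes was tested as an interaction, with the library as a block. Between fibroblast-like and myeloid-like cells 6 of the 40 members passed, all with a higher fold change in fibroblast-like cells (15.0% of members, against 11.0% of all 11492 genes, 6.74% in that direction and 4.28% in the other). The largest was Nfkbiz, with a difference of log2 fold changes of 2.09 (SE 0.30, adjusted p = 0.00173, edgeR), and it was called under all 18 alternatives fitted to both classes. Tlr4 differed by 2.00 (SE 0.49, adjusted p = 0.0143, edgeR) and Map3k8 by 1.24 (SE 0.26, adjusted p = 0.00557, edgeR). Tlr2, Tab2 and Birc3 differed by 0.92, 0.88 and 0.80, with adjusted p of 0.0319, 0.023 and 0.0304 in edgeR. Without WT library 1 or 2, Nfkbiz was the call that remained, and at equal depth 2 members passed as higher and 2 as lower. At equal depth 36 members were tested, and 556 of 8155 genes passed. Without Ikkb_cKO library 2 the adjusted p was 0.0501 for Tlr4 and 0.067 for Birc3, and without library 3 it was 0.133 for Tlr2. In DESeq2's Wald test the adjusted p was 0.0748 for Tlr4 and 0.104 for Tlr2. Tlr4 was near the floor in myeloid-like cells of Ikkb_cKO libraries 1 and 2, where 3 UMIs stood at 8.1 and 7.8 CPM. Chuk, Rel, Nfkbia and Nfkbib, called in the same direction in both classes, gave adjusted p of 0.686, 0.747, 0.624 and 0.433 for a difference. Their differences of log2 fold changes were -0.30 (SE 0.37), 0.15 (SE 0.23), 0.16 (SE 0.17) and 0.35 (SE 0.25).

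Between fibroblast-like and lymphocyte-like cells 38 members were tested and 0 passed in edgeR, where 2.04% of all 10002 genes did, 0.59% as higher and 1.45% as lower. At an unadjusted p under 0.05 there were 4, and DESeq2's Wald test gave 0. Tnfaip3 came nearest, with -0.90 (SE 0.24, adjusted p = 0.0515, edgeR), followed by Nfkbib with -1.16 (SE 0.34, adjusted p = 0.0799, edgeR). Leaving out Ikkb_cKO library 2 gave 1 call, where 299 of 9919 genes passed. Leaving out library 3 gave 4 of 36 tested, Nfkb1, Nfkbia, Nfkbib and Tnfaip3, where 689 of 8578 genes passed.

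Because the classes held different clusters in the genotypes, the fits were repeated inside each cluster with at least 20 cells in every library. In fibroblast-like cluster 9, which held most Ikkb_cKO cells of libraries 1 and 2, Nfkbia went the other way from the whole class. It had 1615, 1669 and 1147 CPM in Ikkb_cKO, against 1039 and 419.8 in WT, higher in every Ikkb_cKO library (log2 1.24, SE 0.28, adjusted p = 0.0125, edgeR). The WT values rested on 24 and 21 cells. These cells held 25026 and 42874 UMIs in all, of which 26 and 18 were of Nfkbia. In cluster 5, led by Dcn and Clec3b, Nfkbia had 599.5, 916 and 782 CPM in Ikkb_cKO, against 1226 and 1134 in WT, lower as in the class (log2 -0.66, SE 0.20, adjusted p = 0.0184, edgeR). In cluster 0, led by Mgp and Igfbp7, it had 592, 771 and 969.5 CPM in Ikkb_cKO, against 1277 and 1660.2 in WT (log2 -0.97, SE 0.34, adjusted p = 0.135, edgeR). Nfkbia was the only member to pass in clusters 5 and 9, of 5 and 31 tested, where 42.2% and 1.46% of all genes passed, and none of 14 passed in cluster 0 by edgeR (2 at an unadjusted p under 0.05), where 1.70% of genes did. Of the 15 members called in the class, 14 could be tested in cluster 9 and 12 of them had the sign of the class. Nfkbib was the other exception, with 34.9, 36.5 and 37.9 CPM in Ikkb_cKO, against 0 and 23.3 in WT (log2 1.35, SE 1.23, adjusted p = 0.614, edgeR). Its WT values came from 0 and 1 UMIs. The cluster is part of the class, so the shared signs are not independent of the calls. Traf3 and Tlr4 had 0 and 0 UMIs in the WT cells of cluster 9. Chuk, Rel, Map3k7, Ripk1 and Irak1 had 0 and 1 there. At such counts the sign of a member says little, so nothing is concluded from the shared signs.

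Of the myeloid-like clusters 3 could be tested, and Nfkbib was lower in each. In cluster 13, led by Retnla, Cd74 and Lyz2, 8 of 34 members passed, where 15.1% of all genes did. Nfkbib had 50.5, 62.5 and 64.9 CPM in Ikkb_cKO, against 151 and 141 in WT there (log2 -1.34, SE 0.28, adjusted p = 0.0016, edgeR). Map3k8 had 20.2, 25.01 and 31.2 CPM in Ikkb_cKO, against 92.8 and 89.2 in WT (log2 -1.78, SE 0.33, adjusted p = 0.00034, edgeR). Nfkb1 had 293, 181 and 378 CPM in Ikkb_cKO, against 108 and 86.8 in WT (log2 1.503, SE 0.27, adjusted p = 0.000304, edgeR). The other 5 were Rel and Tab2, higher, and Nfkbia, Nfkbiz and Nfkbid, lower. In cluster 6, led by Cd74 and genes of the major histocompatibility complex, 3 of 33 passed, where 3.60% of genes did. Nfkbia had 527, 475 and 614 CPM in Ikkb_cKO, against 1529.6 and 1513 in WT (log2 -1.55, SE 0.17, adjusted p = 0.00182, edgeR), Nfkbiz had 151, 150.1 and 204 CPM in Ikkb_cKO, against 559 and 528 in WT (log2 -1.71, SE 0.20, adjusted p = 0.00225, edgeR), and Nfkbib was lower too (log2 -1.40, SE 0.30, adjusted p = 0.029, edgeR). All 3 were lower in every Ikkb_cKO library. Rel and Nfkb1 had log2 fold changes of 0.16 and 0.35 in cluster 6 and did not pass. All 9 members called in the class had its sign in clusters 6 and 13. These clusters are parts of the class, so the shared sign is not independent of the calls.

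Cluster 14 held nearly all neutrophil-marker UMIs of the myeloid-like cells. Without it all 9 calls of the class were kept. Inside it 4 of 12 members passed, where 30.8% of genes did. Nfkbib was lower, while Tnfaip3 (667, 731 and 495 CPM in Ikkb_cKO, against 249.8 and 202 in WT), Ikbkb (435, 118 and 330.2 CPM in Ikkb_cKO, against 105 and 93.3 in WT) and Birc3 were higher (log2 1.32, SE 0.25, adjusted p = 0.00208 for Tnfaip3 and log2 1.47, SE 0.39, adjusted p = 0.0138 for Ikbkb, edgeR). The Ikkb_cKO values of this cluster came from 20, 23 and 36 cells and the WT values from 104 and 113. The neutrophil list summed to 28783, 47828 and 25759 CPM in its Ikkb_cKO cells and 4732 and 1417 CPM in its WT cells. The make-up of the cluster thus differed between genotypes, and the part of this in its calls was not tested.

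The lymphocyte-like class held the T-cell-rich cluster 11, with Ccl5, Cd3g and Cd3e among its leading genes, and cluster 12. In cluster 11, 5 of 20 members were higher in Ikkb_cKO, where 6.97% of genes passed. Nfkb1 had 194, 359 and 445 CPM in Ikkb_cKO, against 52.0 and 88.4 in WT (log2 2.32, SE 0.40, adjusted p = 0.00281, edgeR) and Traf1 had 424, 384 and 316 CPM in Ikkb_cKO, against 151 and 168 in WT (log2 1.21, SE 0.29, adjusted p = 0.0211, edgeR). Rel, Tnfaip3 and Tab2 passed too. In cluster 12, 3 of 22 passed, where 10.9% of genes did. Nfkb1 had 953, 901 and 964 CPM in Ikkb_cKO, against 507 and 766 in WT (log2 0.70, SE 0.22, adjusted p = 0.0402, edgeR), and its log2 fold change over the class was 2.10. Tnfaip3 did not pass in cluster 12 (log2 0.43, SE 0.17, adjusted p = 0.106, edgeR). Tab2 was higher (log2 1.95, SE 0.63, adjusted p = 0.0472, edgeR), from 3 and 1 UMIs in WT, and Nfkbia was lower, with 1944, 2066 and 1767 CPM in Ikkb_cKO, against 3430.2 and 4281 in WT (log2 -0.85, SE 0.15, adjusted p = 0.000431, edgeR). Traf1 had 372, 476 and 363 CPM in Ikkb_cKO, against 331 and 683 in WT in cluster 12, opposite in sign to the class and not past the threshold (log2 -0.21, SE 0.28, adjusted p = 0.7, edgeR). Cluster 12 had higher Nfkb1 than cluster 11 in each library, and the share of the class that cluster 12 held was larger in each Ikkb_cKO library than in WT.

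**Figure D4:**
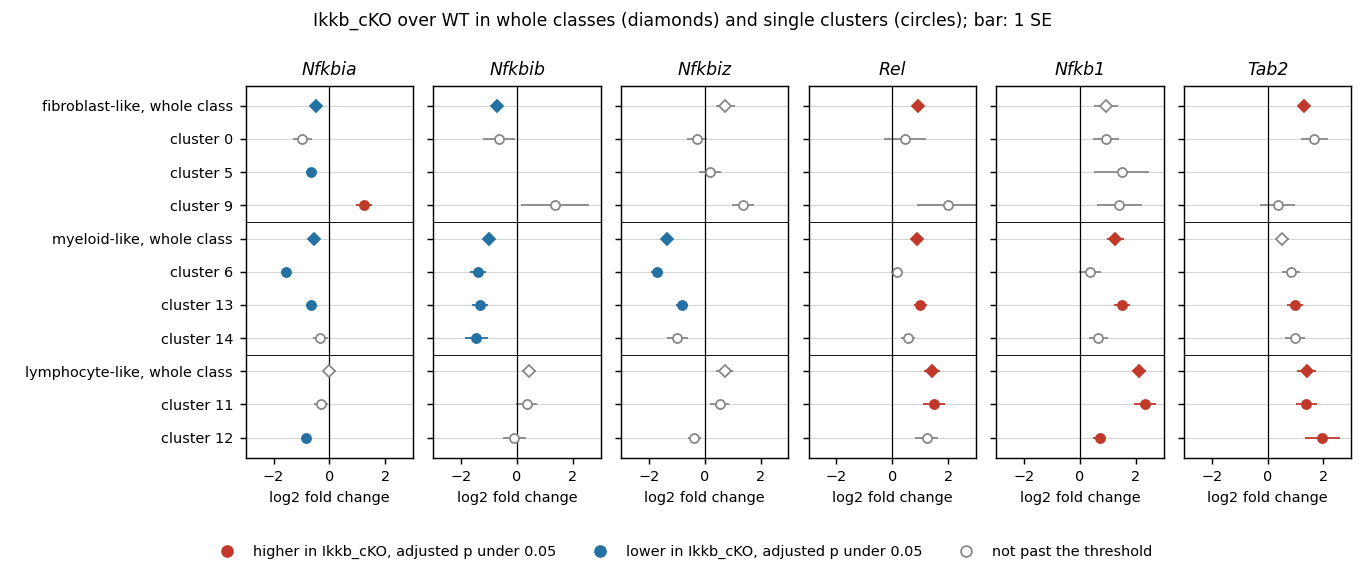
The log2 fold change (x axis, Ikkb_cKO over WT, bars of 1 SE from edgeR) of 6 of the 40 genes in each whole class (diamonds) and in each of its clusters with at least 20 cells in every library (circles). Nfkbia is lower in the whole fibroblast-like class and in cluster 5 but higher in cluster 9 (log2 1.24), while Nfkbib is lower in the myeloid-like class and in all 3 of its tested clusters. Cluster 9 held 24 and 21 WT cells.

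Promoters of the members were searched for the kB consensus of NF-kB on both strands, to show which of the genes called in fibroblast-like cells carry one. RefSeq promoter windows of GRCm38.p6, from 250 bases before to 50 after a transcription start, were found for 32 of the 40 members. The consensus was present in 4.51% of all 32851 promoter windows, and in 15 of the 44 windows of members, which belong to 13 of the 32 genes. Of the 15 members called in fibroblast-like cells, 13 had a window and 5 had a match: Map3k7, Tlr3, Rel and Traf3, which were higher in Ikkb_cKO, and Nfkbia, which was lower. Matches were thus about as frequent among the called members as among all members with a window. The 250 bases before the start are shown 5′ to 3′ on the strand of the gene, with the match in capitals.
Map3k7: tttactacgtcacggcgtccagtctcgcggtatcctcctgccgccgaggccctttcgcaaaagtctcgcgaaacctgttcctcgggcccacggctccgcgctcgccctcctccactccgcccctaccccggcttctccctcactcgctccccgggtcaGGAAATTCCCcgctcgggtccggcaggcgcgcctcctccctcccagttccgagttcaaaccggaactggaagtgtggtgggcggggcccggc
Tlr3: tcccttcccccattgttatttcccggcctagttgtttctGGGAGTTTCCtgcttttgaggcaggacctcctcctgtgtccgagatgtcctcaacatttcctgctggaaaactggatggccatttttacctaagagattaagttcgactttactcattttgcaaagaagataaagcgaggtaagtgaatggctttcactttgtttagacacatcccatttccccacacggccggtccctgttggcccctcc
Rel: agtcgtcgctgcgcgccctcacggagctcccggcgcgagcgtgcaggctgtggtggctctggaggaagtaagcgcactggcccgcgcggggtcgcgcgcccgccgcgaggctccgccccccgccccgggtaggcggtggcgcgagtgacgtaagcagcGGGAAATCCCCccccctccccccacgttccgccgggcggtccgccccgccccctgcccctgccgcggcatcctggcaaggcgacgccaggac
Nfkbia: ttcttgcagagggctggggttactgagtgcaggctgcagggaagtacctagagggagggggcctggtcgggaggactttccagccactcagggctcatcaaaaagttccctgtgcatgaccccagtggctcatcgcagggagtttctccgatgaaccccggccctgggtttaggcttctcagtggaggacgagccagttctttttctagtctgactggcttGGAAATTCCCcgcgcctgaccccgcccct
Traf3: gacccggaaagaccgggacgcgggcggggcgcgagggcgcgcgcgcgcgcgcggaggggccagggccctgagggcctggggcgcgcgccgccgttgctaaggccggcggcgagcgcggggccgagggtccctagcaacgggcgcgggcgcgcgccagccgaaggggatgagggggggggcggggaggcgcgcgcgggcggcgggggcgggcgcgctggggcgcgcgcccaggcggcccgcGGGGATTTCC

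These windows lie at chr4:31963857-31964106 (plus strand) for Map3k7, chr8:45410381-45410630 (minus strand) for Tlr3, chr11:23770970-23771219 (minus strand) for Rel, chr12:55492648-55492897 (minus strand) for Nfkbia and chr12:111166120-111166369 (plus strand) for Traf3. The match in Traf3 ended just before the start site. Counted from the start site, the match in Nfkbia began at -29, those in Map3k7 and Rel at -92 and that in Tlr3 at -211. In Rel 3 overlapping matches formed 1 run. The consensus stood before genes that were higher and before one that was lower, and a match shows letters in a window, not binding.

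Other genes of the pathway were described from 3 lists. Of 18 further receptors, 9 were tested in fibroblast-like cells and 3 passed, all higher in Ikkb_cKO, where 35.3% of all genes passed (17.5% as higher). Tnfrsf1b, a TNF receptor, had 30.5, 40.5 and 47.9 normalised CPM in Ikkb_cKO, against 10.4 and 9.17 in WT (log2 2.04, SE 0.23, adjusted p = 0.00242, edgeR). Il1r1, the interleukin-1 receptor, had 118, 95.7 and 139 normalised CPM in Ikkb_cKO, against 41.4 and 42.2 in WT (log2 1.499, SE 0.19, adjusted p = 0.00291, edgeR). Il17ra, the interleukin-17 receptor, had 139.6, 109 and 145 normalised CPM in Ikkb_cKO, against 58.4 and 59.7 in WT (log2 1.15, SE 0.17, adjusted p = 0.00434, edgeR). In each of these every Ikkb_cKO library was above both WT libraries. The list's median log2 fold change was 0.90, against 0.04 over all genes. In myeloid-like cells 16 of the 18 were tested, with 2 higher (Il1rl1 and Tnfrsf1b) and 4 lower (Tlr5, Tlr7, Tlr9 and Tnfrsf11a), against 18.4% of all genes. In lymphocyte-like cells 5 were tested, with Il1rl1 higher and Tnfrsf1a lower, against 12.5% of all genes.

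Of 34 adaptors and parts of the ubiquitin machinery, 28 were tested in fibroblast-like cells, and 3 were higher and 6 lower, against 17.5% and 17.8% of all genes. Commd1, which promotes the breakdown of Rela, had 36.4, 41.4 and 39.3 normalised CPM in Ikkb_cKO, against 89.1 and 91.9 in WT (log2 -1.21, SE 0.14, adjusted p = 0.00251, edgeR). Sharpin, a subunit of the linear ubiquitin ligase, had 9.83, 11.2 and 12.1 normalised CPM in Ikkb_cKO, against 30.2 and 30.1 in WT (log2 -1.42, SE 0.19, adjusted p = 0.00338, edgeR). Cdc37, a chaperone partner of IKK, had 66.9, 79.3 and 69.7 normalised CPM in Ikkb_cKO, against 144 and 148 in WT (log2 -1.02, SE 0.14, adjusted p = 0.00341, edgeR). All 3 were lower in every Ikkb_cKO library, while Irak3, an inhibitor of IRAK signalling, was higher, with 48.2, 57.8 and 44.8 normalised CPM in Ikkb_cKO, against 21.9 and 20.2 in WT (log2 1.25, SE 0.18, adjusted p = 0.00399, edgeR). Sharpin was also lower in lymphocyte-like cells, the single call among 17 tested there, where 12.5% of all genes passed. In myeloid-like cells 32 were tested, with 4 higher (Card10, Malt1, Tnip3 and Traf4) and Rnf31 lower, against 18.4% of all genes.

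The target list held 37 genes that NF-kB can induce, of which Nfkbia and Tnfaip3 are also members. In fibroblast-like cells 28 were tested, with 5 higher and 7 lower in Ikkb_cKO, where 35.3% of all genes passed, 17.5% as higher and 17.8% as lower. The list's median log2 fold change was -0.02, against 0.04 over all genes. Il6, a cytokine, had 886, 678 and 633 normalised CPM in Ikkb_cKO, against 177 and 167 in WT (log2 2.09, SE 0.18, adjusted p = 0.00163, edgeR). Irf1, a transcription factor of interferon responses, had 144, 126 and 142 normalised CPM in Ikkb_cKO, against 437 and 408 in WT (log2 -1.62, SE 0.13, adjusted p = 0.00143, edgeR). Cxcl10 and Ccl2, chemokines for T cells and monocytes, were lower. Cxcl10 had 57.0, 50.9 and 76.7 normalised CPM in Ikkb_cKO, against 262 and 265 in WT (log2 -2.08, SE 0.19, adjusted p = 0.00163, edgeR) and Ccl2 had 1216, 1131 and 1403 normalised CPM in Ikkb_cKO, against 2659 and 2714 in WT (log2 -1.10, SE 0.12, adjusted p = 0.00238, edgeR). The genotypes did not overlap for any of these 4. In myeloid-like cells 29 were tested, with 5 higher, among them Il6 and Bcl2a1b, and 10 lower, among them Tnf, Cxcl2 and Icam1, against 9.04% and 9.37% of all genes. In lymphocyte-like cells 17 were tested, with Tnfaip3, Bcl2a1b and Gadd45b higher and Ccl5 lower, against 12.5% of all genes.

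The remaining classes held too few cells in some libraries for a test, and their levels are given as plain CPM without one. Mast-cell-like cells (25, 8 and 18 in Ikkb_cKO, 35 and 40 in WT) had high Nfkbid, with 1344, 917 and 390.1 CPM in Ikkb_cKO, against 1271 and 1088 in WT. Nfkb1 stood at 954, 647 and 858 CPM in Ikkb_cKO, against 102 and 235 in WT in them, from 44, 12 and 33 UMIs in Ikkb_cKO, and the genotypes did not overlap. Nfkbiz had 3209, 2804 and 2548 CPM in Ikkb_cKO, against 1605 and 1602 in WT, and Nfkbia 846, 1402 and 988 CPM in Ikkb_cKO, against 3247 and 2751 in WT, again without overlap and in opposite directions. In mural-like cells (3, 4 and 20 in Ikkb_cKO, 51 and 51 in WT) Nfkbia had 435, 788 and 519.6 CPM in Ikkb_cKO, against 2062 and 2364 in WT, from 5, 8 and 53 UMIs in Ikkb_cKO. The mural-like cells of Ikkb_cKO library 2 had 24230 CPM of the fibroblast list and 17040 CPM of the mural list. In the other libraries the fibroblast list came to 2767 to 3522 CPM in this class. Endothelial-like cells (9, 10 and 38 in Ikkb_cKO, 67 and 73 in WT) had 1329, 1999 and 3154 CPM of Nfkbia in Ikkb_cKO, against 2596 and 2547 in WT, and the groups overlapped. Keratinocyte-like cells came almost all from Ikkb_cKO library 3 (8, 10 and 299 in Ikkb_cKO, 14 and 28 in WT). In library 3, Ikbkb stood at 25.6 CPM and Rel at 138 CPM in them, and the WT libraries held 1 and 0 UMIs of Ikbkb. In WT, 3 UMIs of a gene would have stood at 36.6 and 18.0 CPM in these cells.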

How the data were processed

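The deposited files are UMI count matrices of 5 libraries, made by the authors with Cell Ranger 1.3.0 and the mm10 build, both named in the submitters' processing notes. The file headers give software version 3.0.1. Total UMIs were 2163166, 2350022 and 9738296 in Ikkb_cKO and 14659158 and 16773096 in WT. Barcodes with under 300 genes or over 10% mitochondrial UMIs were dropped, and 221 probable doublets were removed by Scrublet score at the expected rate, because its automatic cut marked only 25 cells. Cells were clustered with scanpy 1.11.5 (2000 variable genes, 30 components, 15 neighbours, Leiden resolution 1) and classes were named from marker lists. The UMI counts of a class were added up within each library, and these sums went into edgeR 4.0.16 (TMM, filterByExpr, robust quasi-likelihood, Benjamini-Hochberg over all genes), which was first tested on simulated data. The difference between classes was an interaction with the library as a block, and DESeq2 1.42.0 was an alternative. Keratinocyte-like and endothelial-like cells were planned for testing but held fewer than 20 cells in some libraries. Replicate libraries differed by more than sampling noise (chi-square per degree of freedom 1.47 to 15) and were kept apart. Ikkb_cKO libraries 1 and 2 had 1.57, 2.3 and 1.47 in fibroblast-like, myeloid-like and lymphocyte-like cells. Pairs of either with library 3 had 6.33 to 15. Intervals and floors of 3 UMIs cover counting error only. Members, gene lists and tests were chosen with earlier results of these data known. Named with every library's value were the IKK and subunit genes and all members past the threshold in a test, and other values were chosen after they were seen.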

Additional observations from a re-analysis of the deposited data

Results flagged for a closer look

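For 6 members the genotype effect differed between fibroblast-like and myeloid-like cells in a test of the difference itself (edgeR, adjusted over all genes). The difference of log2 fold changes was 2.094 for Nfkbiz (adjusted p = 0.00173), 1.995 for Tlr4 (adjusted p = 0.0143), 1.241 for Map3k8 (adjusted p = 0.00557), 0.915 for Tlr2 (adjusted p = 0.0319), 0.884 for Tab2 (adjusted p = 0.023) and 0.802 for Birc3 (adjusted p = 0.0304). For Nfkbiz, Tlr4, Map3k8 and Tlr2 the fold change was above 0 in fibroblast-like and below 0 in myeloid-like cells, with 0.74, 0.87, 0.04 and 0.15 in the first class and -1.36, -1.09, -1.10 and -0.65 in the second. Tab2 and Birc3 were above 0 in both, with 1.297 and 0.71 in fibroblast-like and 0.53 and 0.04 in myeloid-like cells. Tlr4 was near the floor in myeloid-like cells of Ikkb_cKO libraries 1 and 2. The differences of Tlr4 and Tlr2 did not pass in DESeq2's Wald test (adjusted p = 0.0748 and 0.104). The groups hold 2 and 3 libraries, so no single library was assessed as an outlier.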

How the results depend on the processing

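Leaving out 1 library at a time gave 0 to 18 calls in fibroblast-like cells (15 with all), 1 to 12 in myeloid-like cells (9 with all), 1 to 9 in lymphocyte-like cells (6 with all), 1 to 8 for fibroblast minus myeloid (6 with all) and 0 to 4 for fibroblast minus lymphocyte (0 with all). Without WT library 1 or 2, over all genes 480 and 463 were called in fibroblast-like cells, against 3744 with all libraries. Of the fits without 1 library, the one without Ikkb_cKO library 3 called the most members in each comparison. It called 5532, 1768, 1168, 1540 and 689 genes in the order above, against 3744, 1648, 537, 1266 and 204 with all libraries. Thinning to 1000 UMIs, which also left out shallower cells, gave 7 calls in fibroblast-like and 2 in lymphocyte-like cells, from 33 and 16 members tested. Over all genes it called 2113 of 7377 and 203 of 1777. Leiden resolution 2.0 gave 1 call of 30 members in lymphocyte-like cells, where 212 of 4271 genes were called. For fibroblast minus lymphocyte, 3 members were called with no low-count filter. A looser cell filter, a stricter cell filter and Ikkb_cKO libraries 1 and 2 summed each gave 1. Over all genes these fits called 366 of 19252, 287 of 10269, 262 of 9607 and 296 of 10925. With libraries 1 and 2 summed, 11 members and 2941 of 11858 genes were called in fibroblast-like cells. The calls of Chuk, Rela, Nfkbia and Birc2 were lost there. With the replicate number as a block the counts were 17, 12, 8, 8 and 4 in the order above. In fibroblast-like cells 17 of 38 members and 5410 of 11318 genes were called. Over all genes the other block fits called 1577 of 9709, 1207 of 5146, 1435 of 12263 and 695 of 10864. Number 3 occurs only in Ikkb_cKO, so library 3 did not inform the genotype difference in these fits. Chuk in fibroblast-like cells (0.596), Cyld in myeloid-like cells (0.702) and Tlr2 between them (0.801) were not called with the block. Same-numbered libraries had correlations of deviations from -0.061 to 0.04. The deviations of the 2 WT libraries mirror each other, so these correlations cannot decide whether the numbers pair the libraries. Among members called in a class, the direction turned inside single clusters for Nfkbia (1.244) and Nfkbib (1.355) in cluster 9 and Traf1 (-0.209) in cluster 12, and the cause was not tested. Nfkbib rested on 0 and 1 UMIs in the WT cells of cluster 9. Neither Nfkbib in cluster 9 nor Traf1 in cluster 12 passed the threshold. Of the remaining member values under alternatives, 2081 stayed on the same side of the threshold, 169 lost the call and 66 gained it. The 2081 include values called in neither fit, so they do not count calls that were kept. Members not called in a class could change sign, as Nfkbiz did in fibroblast-like cluster 0 (-0.29), Tnfaip3 in myeloid-like cluster 13 (-0.45) and Traf1 in myeloid-like cluster 6 (-0.41). Alternatives planned for keratinocyte-like and endothelial-like cells were not run. Depth limits the scarce members most, since 12 had too few UMIs in lymphocyte-like cells.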
